A study of Mus musculus with 9 samples.

Results

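The genes described here are those of polyamine synthesis, its control, polyamine breakdown and the hypusine modification that polyamines feed. Their members were fixed by symbol: Odc1, Amd1, Srm, Sms, Oaz1, Azin1, Sat1, Smox, Dhps and Dohh. All 10 were found among the 48709 genes of the table, and all 10 passed the filter on low values that left 11971 genes for testing. Bulk RNA was sequenced from 9 samples labelled as CD8+ T cells of the mouse, which kill infected or tumor cells. They formed 3 groups of 3 libraries: cells without OVA peptide (control), cells with OVA peptide, and cells with OVA peptide and citraconate. OVA peptide is an ovalbumin sequence used as a test antigen, and citraconate is a dicarboxylate related to itaconate. The sources used here give no mouse strain, genotype, age, dose or time, and no group received citraconate alone. For 8 libraries the label reads PAS-T cells, a term left undefined there. Nothing in the labels says that replicates came from separate animals or cultures, so the p-values measure only how far these samples spread, which may be technical variation.

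Polyamines are small positively charged metabolites (putrescine, spermidine and spermine) that bind RNA and DNA and are made in quantity by dividing T cells. ODC, encoded by Odc1, makes putrescine from ornithine. AMD1 decarboxylates S-adenosylmethionine, and spermidine synthase (Srm) and spermine synthase (Sms) use the product to lengthen putrescine into spermidine and spermidine into spermine. Antizyme (Oaz1) binds ODC and sends it to the proteasome, and antizyme inhibitor (Azin1), an ODC relative without its activity, takes antizyme away. SAT1 acetylates spermidine and spermine for export or breakdown, and spermine oxidase (Smox) turns spermine back into spermidine. Deoxyhypusine synthase (Dhps) and deoxyhypusine hydroxylase (Dohh) convert part of spermidine into hypusine on the translation factor eIF5A, which helps ribosomes pass difficult stretches.

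The antizyme mRNAs carry the site through which polyamines control the pathway. It is shown as background for Oaz1 and Oaz2, and use of the site was not measured here. Polyamines make ribosomes shift frame at a stop codon inside the coding region, so that full-length antizyme is made. The 60 bases around this site were read from transcripts of the GENCODE M21 annotation (mouse build GRCm38), with the stop codon of the first reading frame in capitals. The annotated coding transcripts skip the first base of that codon, which joins both frames.
Oaz1: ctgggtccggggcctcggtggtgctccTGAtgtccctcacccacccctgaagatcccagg
Oaz2: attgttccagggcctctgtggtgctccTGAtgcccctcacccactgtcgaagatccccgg
Of these 60 bases 49 were the same in both genes and 11 differed.

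Promoters are shown for Odc1, the most abundant member of the synthesis arm, and for Smox, which moved against it with OVA and again when citraconate was added, though both were higher than control with OVA plus citraconate. RefSeq windows (build GRCm38.p6) were matched by symbol for 8 of the 10 members, all but Srm and Azin1. Each sequence holds the 250 bases before the annotated transcript start. Capitals mark the GC box GGGCGG on either strand.
Odc1: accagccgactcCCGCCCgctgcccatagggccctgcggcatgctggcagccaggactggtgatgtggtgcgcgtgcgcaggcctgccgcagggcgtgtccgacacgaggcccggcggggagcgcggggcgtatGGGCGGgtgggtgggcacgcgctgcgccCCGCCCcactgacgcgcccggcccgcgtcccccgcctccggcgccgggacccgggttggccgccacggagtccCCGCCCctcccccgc
Smox: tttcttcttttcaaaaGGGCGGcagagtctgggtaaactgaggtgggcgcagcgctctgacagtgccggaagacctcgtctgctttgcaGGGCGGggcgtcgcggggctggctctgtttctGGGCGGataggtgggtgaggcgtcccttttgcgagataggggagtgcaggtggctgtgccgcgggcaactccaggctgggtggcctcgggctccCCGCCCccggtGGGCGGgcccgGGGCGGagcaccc
The Odc1 window lies at chr12:17544623-17544872 (plus strand), has 80.0% G and C, and holds 4 GC boxes. The Smox window lies at chr2:131491612-131491861 (plus strand), has 68.0% G and C, and holds 6 GC boxes, which do not overlap each other. GGGCGG was present for 6 of the 8 members, which have 9 windows, and in 32.7% of all 32851 windows of this length. The member count is by gene and the other by window, and windows were not matched for G and C content. The E-box CACGTG, the letters that MYC and MAX bind, was searched on both strands as well. It was present in 6.02% of all windows and, among the members, in 1 of the 2 Sms windows (chrX:157492288-157492537, minus strand), shown with the E-box in capitals.
Sms: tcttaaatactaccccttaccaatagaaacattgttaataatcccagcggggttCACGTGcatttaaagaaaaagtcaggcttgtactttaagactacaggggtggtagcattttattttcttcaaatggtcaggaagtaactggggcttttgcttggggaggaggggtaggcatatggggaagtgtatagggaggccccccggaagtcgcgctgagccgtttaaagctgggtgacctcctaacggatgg

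Levels are in TPM, a relative transcript abundance that accounts for gene length, so genes of different length can be compared. Reads per gene, worked back from the table, summed to 14754676 to 17384484 per library. Behind the members' values stood 226 reads (the lowest, for Dhps) to 15072 reads (the highest, for Odc1). On principal components OVA replicate 2 and OVA plus citraconate replicate 2 lay farthest from their partners. The 6 CD8 T cell markers summed to 4634 to 4913 TPM in control, 1119 to 1980 TPM with OVA and 3485 to 4019 TPM with OVA plus citraconate. All 6 were called lower with OVA than in control. Between OVA plus citraconate and control they were split. Cd8a was higher (325 against 217 TPM, limma adjusted p = 0.0125), Cd8b1 and Cd2 were lower, and Cd3d, Cd3e and Cd3g did not pass. Natural killer markers Ncr1 and Klrb1c summed to 0.390 to 1.71, 69.1 to 102 and 15.9 to 26.8 TPM in control, OVA and OVA plus citraconate. The 6 myeloid markers in the table summed to 6.45 to 8.74, 54.1 to 87.0 and 13.9 to 20.9 TPM. With OVA the means within this list were 58.8 TPM for Fcgr3, 7.87 TPM for Cd14 and 5.71 TPM for Itgax, beside 0.338, 0.361 and 6.96 TPM in control; Fcgr3 and Cd14 passed the test as higher, and Lyz2, Csf1r and Adgre1 stayed under 0.4 TPM in every library. Stromal and epithelial markers summed to 41.5 to 44.3, 263 to 387 and 64.1 to 83.9 TPM, nearly all of it Pecam1 and Epcam, with Col1a1 under 0.4 TPM in every library. Markers of CD4 and regulatory T cells summed to at most 3.19 TPM and those of erythroid cells to at most 3.42 TPM. B cell markers summed to 13.5 to 15.3 TPM in control and at most 1.16 TPM in the other groups. The table held 20 markers of other cell types, of which 11 were tested. With OVA 6 of the 11 rose and 3 fell, beside 32.1% and 39.8% of all tested genes. The filter on low values favoured some of these calls. Among the risers, Ncr1, Klrb1c, Fcgr3 and Cd14 passed it only through the peptide groups. Cd79a and Cd79b, which fell, passed it only through control. The part of these markers in the results below was not tested. In bulk RNA, fewer cells of a type and less RNA per cell cannot be told apart.

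With OVA, transcripts of polyamine synthesis rose and those of antizyme fell. Odc1 rose 2.17-fold, Srm 2.84-fold, and Sat1, on the breakdown side, 3.42-fold, whereas Oaz1 fell 1.51-fold and Smox 1.67-fold. When citraconate was added, Srm, Azin1 and, less, Odc1 were lower than with OVA, and Smox and Oaz1 were higher. Sat1, Amd1 and Dhps had about the same levels in both peptide groups and were higher there than in control. Dohh did not pass the test in any comparison.

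**Figure D1:**
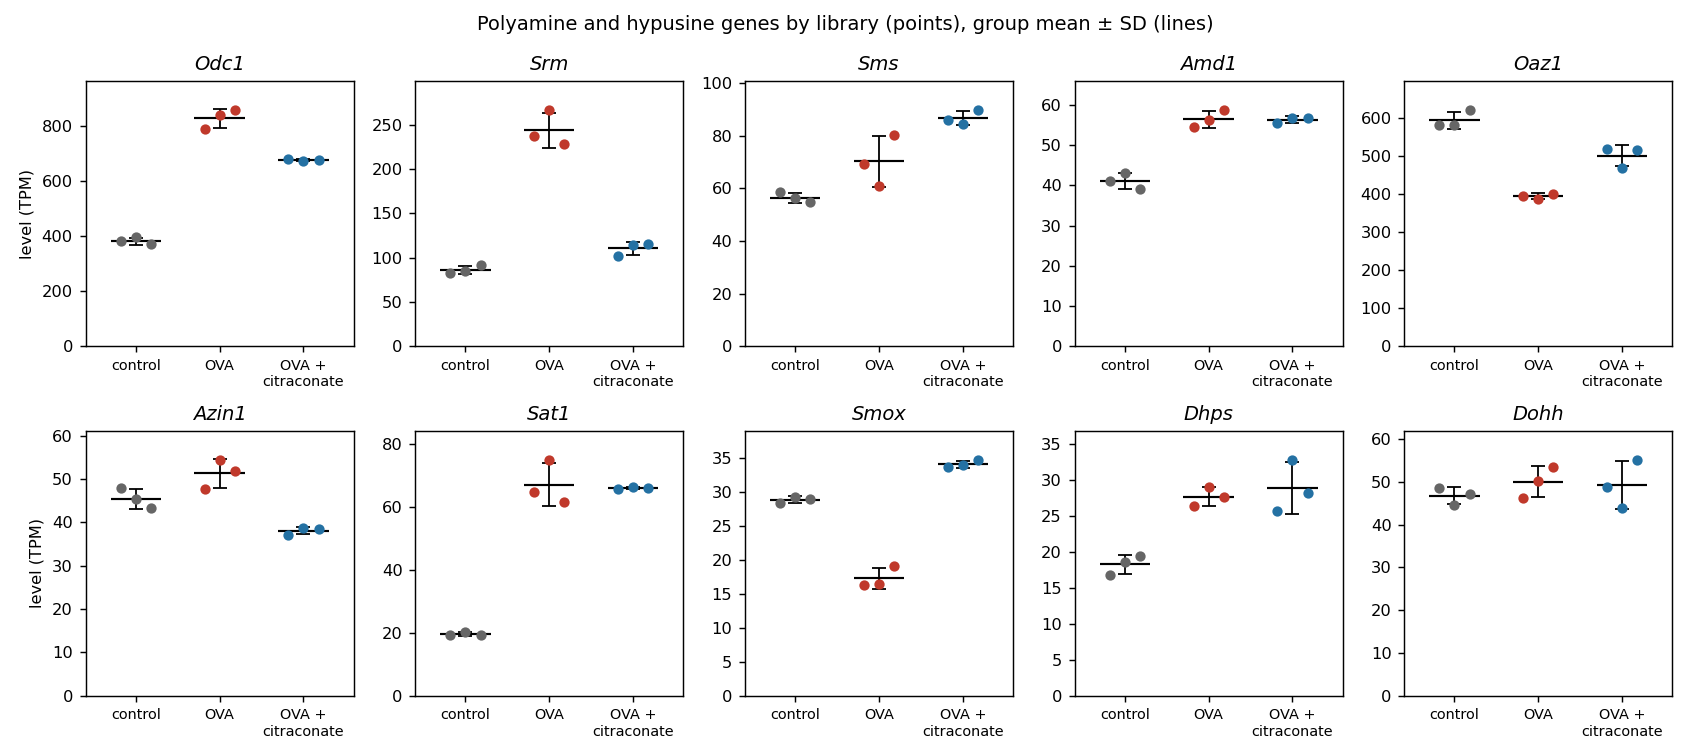
Level in TPM (vertical axes, each from 0) of the 10 members in each library (points) of the 3 groups (horizontal axes), with group mean ± SD (lines, n = 3). Srm is highest in the 3 OVA libraries (229 to 266 TPM), Sat1 is high in all 6 libraries with peptide (61.7 to 74.9 TPM), and Smox is lowest with OVA (16.4 to 19.0 TPM).

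In the synthesis arm Odc1 was the most abundant transcript. It stood at 380, 395 and 369 TPM in the control replicates, 788, 838 and 855 TPM with OVA, and 680, 670 and 676 TPM with OVA plus citraconate. The 3 groups did not overlap, with control lowest and OVA highest. The group means were 381 ± 12.7, 827 ± 35.0 and 675 ± 4.66 TPM (SD, n = 3), above 97.2%, 98.6% and 98.4% of the genes tested. On the log2(TPM + 1) scale Odc1 rose with OVA by 1.12 (SE 0.05, limma adjusted p = 3.29e-08). Most of that rise was kept with citraconate: OVA plus citraconate stood 0.82 (SE 0.05) above control (limma adjusted p = 3.96e-07).

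Srm, whose product is spermidine, behaved differently from Odc1 in the citraconate group. Its levels were 82.1, 84.4 and 91.5 TPM in control, 237, 266 and 229 TPM with OVA, and 102, 114 and 115 TPM with OVA plus citraconate. The OVA libraries were all more than 100 TPM above every other library, and the citraconate libraries lay just above control. The means were 86.0 ± 4.89, 244 ± 19.7 and 110 ± 7.46 TPM. The log2 rise with OVA was 1.49 (SE 0.07, limma adjusted p = 8.85e-08), larger in size than the change of 89.4% of the genes tested. OVA plus citraconate remained above control by 0.35 (SE 0.07, limma adjusted p = 0.00207).

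Sms, which makes spermine, had its highest level in the citraconate group. It was measured at 58.6, 56.2 and 54.8 TPM in control, 69.5, 61.1 and 80.3 TPM with OVA, and 86.0, 84.5 and 89.7 TPM with OVA plus citraconate. The OVA replicates spread widely, replicate 2 being the lowest, but they lay between the other groups without overlap. Sms rose with OVA by a log2 of 0.30 (SE 0.09, limma adjusted p = 0.00924) and stood 0.61 (SE 0.09) above control with OVA plus citraconate (limma adjusted p = 1.72e-04).

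Amd1, which supplies the aminopropyl donor, was higher in both peptide groups than in control. Control replicates held 41.1, 43.0 and 39.2 TPM, OVA replicates 54.5, 56.3 and 58.7 TPM, and OVA plus citraconate replicates 55.5, 56.8 and 56.9 TPM. The peptide groups overlapped each other; under median-of-ratios scaling Amd1 was called lower with OVA plus citraconate than with OVA (log2 -0.13, limma adjusted p = 0.0355). The log2 differences from control were 0.45 (SE 0.05) with OVA (limma adjusted p = 3.34e-05) and 0.45 (SE 0.05) with OVA plus citraconate (limma adjusted p = 6.25e-05). Amd2, a near copy of Amd1, was at 0.676 to 1.66 TPM in all libraries. Of the 75-base words in Amd1 coding transcripts 78.1% also occur in Amd2, so the division of reads between them is uncertain.

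Among the genes that control ODC protein, Oaz1 moved against Odc1. Its levels were 579, 581 and 618 TPM in control, 395, 385 and 399 TPM with OVA, and 516, 467 and 514 TPM with OVA plus citraconate. Without overlap, the citraconate libraries lay between the others. The means were 593 ± 22.2, 393 ± 7.40 and 499 ± 27.7 TPM. Oaz1 fell by 0.59 on the log2 scale with OVA (SE 0.05, limma adjusted p = 3.59e-06), and OVA plus citraconate stayed below control by a log2 of -0.25 (SE 0.05, limma adjusted p = 0.00217).

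Oaz2, the second broadly expressed antizyme gene, followed the same order at lower levels. It was at 28.7, 28.7 and 30.6 TPM in control, 20.5, 20.5 and 20.5 TPM with OVA, and 29.3, 25.4 and 27.6 TPM with OVA plus citraconate. The OVA libraries were the 3 lowest, while control and citraconate libraries overlapped. It fell by 0.50 with OVA (limma adjusted p = 7.52e-05). The level of Oaz1 per Oaz2 was 20.2 ± 0.05, 19.2 ± 0.37 and 18.2 ± 0.55 in control, OVA and OVA plus citraconate (SD, n = 3).

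Azin1, which protects ODC from antizyme, was lowest in the citraconate group. Levels were 47.9, 45.3 and 43.3 TPM in control, 47.7, 54.3 and 51.9 TPM with OVA, and 37.2, 38.6 and 38.4 TPM with OVA plus citraconate. The citraconate libraries lay below all others, and the OVA and control libraries overlapped. OVA plus citraconate stood below control by a log2 of -0.25 (SE 0.06, limma adjusted p = 0.00638). The higher mean with OVA passed narrowly (log2 0.17, SE 0.06, limma adjusted p = 0.0329). This call was lost without control replicate 2 (0.0782) or 3 (0.109), without OVA replicate 2 (0.112) or 3 (0.0758), and with the control and OVA libraries fitted alone (0.0548).

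On the breakdown side Sat1 rose more than any other member. It was at 19.3, 20.4 and 19.2 TPM in control, 64.8, 74.9 and 61.7 TPM with OVA, and 65.9, 66.4 and 66.1 TPM with OVA plus citraconate. All 6 libraries with peptide lay above 60 TPM and both peptide groups overlapped. The means were 19.6 ± 0.674, 67.2 ± 6.91 and 66.1 ± 0.231 TPM. Sat1 rose with OVA by a log2 of 1.72 (SE 0.07, limma adjusted p = 3.19e-08) and stood 1.70 (SE 0.07) above control with OVA plus citraconate (limma adjusted p = 5.46e-08). The latter was larger in size than the change of 95.1% of the genes tested.

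Smox went the other way with OVA and came back above control with citraconate. Control replicates held 28.4, 29.3 and 29.0 TPM, OVA replicates 16.4, 16.4 and 19.0 TPM, and OVA plus citraconate replicates 33.6, 33.9 and 34.7 TPM. The groups did not overlap, with OVA lowest and OVA plus citraconate highest. Smox fell by 0.71 on the log2 scale with OVA (SE 0.07, limma adjusted p = 6.61e-06), and OVA plus citraconate exceeded control by 0.23 (SE 0.07, limma adjusted p = 0.0144). Paox, which oxidizes the acetylated polyamines that SAT1 makes, was at 13.7 ± 1.10 TPM in control, 5.23 ± 1.01 TPM with OVA and 6.77 ± 0.603 TPM with OVA plus citraconate. It fell by 1.25 on the log2 scale with OVA (SE 0.13, limma adjusted p = 1.10e-05).

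In the hypusine arm Dhps rose and Dohh did not pass. Dhps was at 16.8, 18.6 and 19.4 TPM in control, 26.4, 29.0 and 27.6 TPM with OVA, and 25.6, 32.7 and 28.1 TPM with OVA plus citraconate. Every library with peptide lay above every control library, and replicate 2 was the highest in both peptide groups. The log2 differences from control were 0.57 (SE 0.09) with OVA (limma adjusted p = 2.74e-04) and 0.63 (SE 0.09) with OVA plus citraconate (limma adjusted p = 2.45e-04).

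Dohh, which completes hypusine, was at 48.6, 44.7 and 47.1 TPM in control, 46.3, 50.3 and 53.5 TPM with OVA, and 48.9, 43.9 and 55.1 TPM with OVA plus citraconate. The groups overlapped. The 95% interval of its log2 difference ran from -0.10 to 0.28 for OVA against control and from -0.12 to 0.26 for OVA plus citraconate against control. With the granzyme genes left out of the total, Dohh was called higher with OVA (log2 0.21, limma adjusted p = 0.0436).

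Eif5a, the gene of the protein that receives hypusine, exceeded each of the 10 members. It was at 1169, 1136 and 1141 TPM in control, 1438, 1498 and 1449 TPM with OVA, and 1278, 1220 and 1301 TPM with OVA plus citraconate. The groups did not overlap, with control lowest and OVA highest. Eif5a rose with OVA by a log2 of 0.35 (SE 0.04, limma adjusted p = 5.13e-05). With OVA plus citraconate it was lower than with OVA by -0.21 as measured (limma adjusted p = 0.00262). After the median difference of all genes was taken off, this was -0.33. It stood above control by 0.14 (limma adjusted p = 0.0197). That call was lost under median-of-ratios scaling (0.104), and without control replicate 2 (0.0705) or 3 (0.0596) or OVA plus citraconate replicate 3 (0.0709). Xpo4, which exports eIF5A from the nucleus, was at 9.60 ± 0.586, 15.1 ± 0.590 and 10.5 ± 1.43 TPM in control, OVA and OVA plus citraconate. It rose with OVA by 0.60 (SE 0.10, limma adjusted p = 3.59e-04).

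Set side by side, 9 of 10 members passed the test for OVA against control, 7 higher and 2 lower. Of all tested genes 71.9% passed in either direction, 32.1% higher and 39.8% lower, so the share that passed is high throughout the table. The genes higher made up 44.6% of those called, but 50.7% under median-of-ratios scaling and 52.4% with granzyme genes left out of the total. The groups did not overlap for 8 members, against 75% of all tested genes. The median log2 difference was 0.38 for the members and -0.08 for all tested genes. This comparison asks what the peptide changed.

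For OVA plus citraconate against OVA, which asks what citraconate changed under peptide, 6 of 10 members passed, 3 higher (Sms, Oaz1, Smox) and 3 lower (Odc1, Srm, Azin1). Of all tested genes 59% passed, 37.8% higher and 21.2% lower. The genes higher made up 64.0% of those called, but 49.2% under median-of-ratios scaling and 49.8% under quantile normalization. The groups did not overlap for 6 members, against 66.1% of all tested genes. The median of all genes was shifted by a log2 of 0.12 here, and the differences that follow are given after this median was taken off, while the p-values test the differences as measured. Srm was lower by -1.26 (limma adjusted p = 5.43e-06), Azin1 by -0.54 (limma adjusted p = 3.09e-04) and Odc1 by -0.42 (limma adjusted p = 4.42e-04). Smox was higher by 0.82 (limma adjusted p = 7.99e-06), Oaz1 by 0.22 (limma adjusted p = 3.20e-04) and Sms by 0.18 (limma adjusted p = 0.0106). Under median-of-ratios scaling of the libraries 2 members were higher and 4 lower: Sms no longer passed (log2 0.17, limma adjusted p = 0.0605) and Amd1 was called lower. Before the median was taken off, the 95% interval of the difference ran from -0.18 to 0.14 for Sat1, from -0.12 to 0.12 for Amd1, from -0.15 to 0.26 for Dhps and from -0.22 to 0.16 for Dohh. After it was taken off, the differences were -0.14 for Sat1, -0.13 for Amd1, -0.07 for Dhps and -0.15 for Dohh.

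For OVA plus citraconate against control 9 of 10 members passed, 7 higher and 2 lower (Oaz1 and Azin1), against 59.4% of all tested genes, 33.1% higher and 26.3% lower. The groups did not overlap for 9 members, against 67.4% of all tested genes. The median log2 difference was 0.40 for the members and 0.04 for all tested genes. These comparisons share libraries in pairs, so their values are given side by side and their likeness is no result. Azin1 and Smox were the members whose mean lay on opposite sides of control in the peptide groups: 51.3 ± 3.34 and 38.1 ± 0.779 TPM for Azin1, beside 45.5 ± 2.31 TPM in control, and 17.3 ± 1.53 and 34.1 ± 0.548 TPM for Smox, beside 28.9 ± 0.474 TPM.

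**Figure D2:**
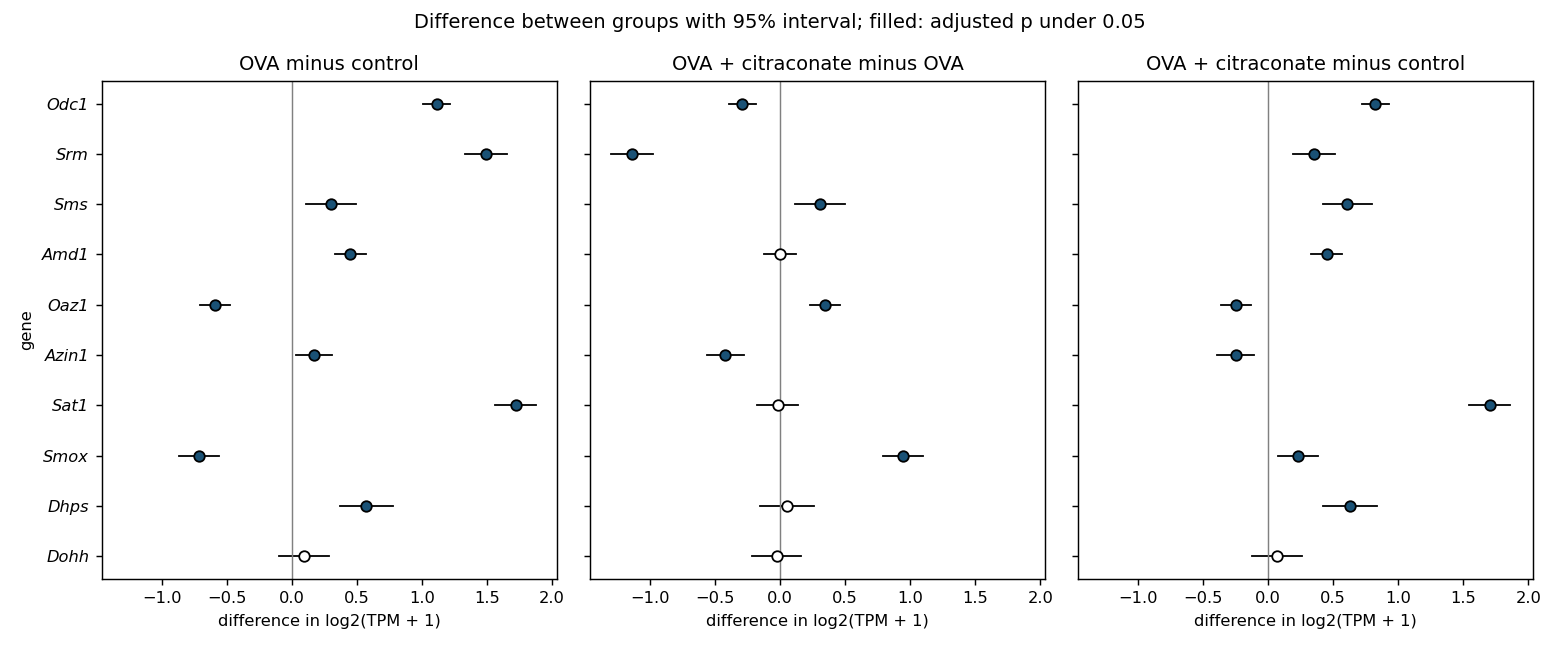
Difference in log2(TPM + 1) between groups (horizontal axes) for the 10 members (vertical axis) in the 3 comparisons, with the 95% interval from limma; filled points passed an adjusted p of 0.05. In the middle plot Srm lies farthest to the left and Smox farthest to the right, while the open points of Amd1, Sat1, Dhps and Dohh lie near 0.

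Ratios within a library do not depend on how libraries are scaled, and 4 were compared. Odc1 per Oaz1, the enzyme's transcript over that of its inhibitor, was 0.656, 0.679 and 0.597 in control, 1.995, 2.18 and 2.14 with OVA, and 1.32, 1.43 and 1.31 with OVA plus citraconate. Control libraries thus held fewer Odc1 than Oaz1 transcripts and all 6 libraries with peptide held more. Srm per Sms was 1.40, 1.50 and 1.67 in control, 3.41, 4.36 and 2.85 with OVA, and 1.18, 1.35 and 1.28 with OVA plus citraconate. The OVA libraries were highest and the citraconate libraries lowest, without overlap.

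Azin1 per Oaz1 was 0.0769 ± 0.00641 in control, 0.131 ± 0.0101 with OVA alone and 0.0764 ± 0.00548 after OVA plus citraconate (SD, n = 3). The control and citraconate groups overlapped, because both transcripts were lower with OVA plus citraconate than in control by the same log2 of -0.25. Sat1 per Odc1 was 0.0515 ± 0.000609, 0.0813 ± 0.00864 and 0.0979 ± 0.00102 in the same order, with no overlap between groups. Of single tested genes, 75%, 66.1% and 67.4% had groups that did not overlap in the 3 comparisons, in the order given above. No such share was computed for other gene pairs. Over the 12 ratio comparisons 11 had groups that did not overlap. Each of these 11 gave an exact two-sided permutation p of 0.1, the smallest that 3 against 3 libraries allow (0.109 after Benjamini-Hochberg adjustment), and Azin1 per Oaz1 in OVA plus citraconate against control gave 1. No ratio could therefore pass a threshold of 0.05 in this design.

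**Figure D3:**
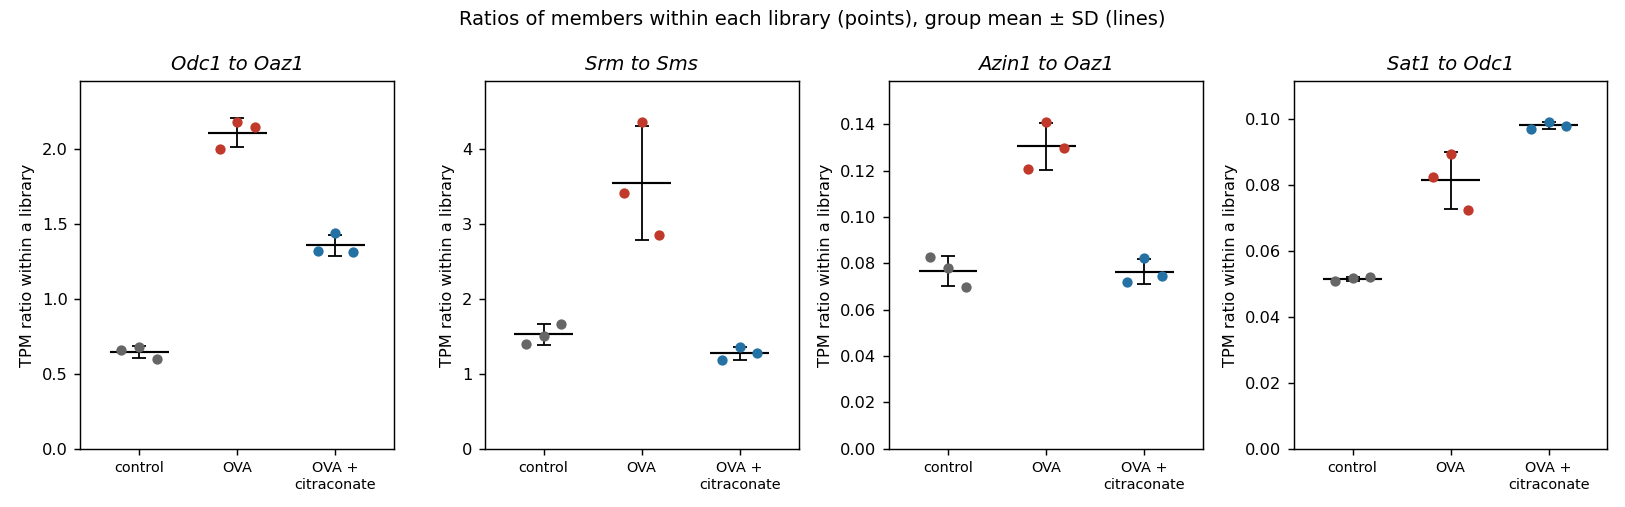
TPM ratio of a pair of members within each library (vertical axes, from 0; points) in the 3 groups (horizontal axes), with group mean ± SD (lines, n = 3). Odc1 per Oaz1 is 0.597 to 0.679 in control and 1.995 to 2.18 with OVA, and Srm per Sms is 2.85 to 4.36 with OVA and at most 1.67 elsewhere.

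The other genes of the pathway were read from 6 lists with 38 entries, of which 26 were tested. With OVA 10 of the 26 rose, 12 fell and 4 did not pass, beside 32.1% and 39.8% of all tested genes. With OVA plus citraconate against OVA 7 were higher, 10 lower and 9 did not pass, beside 37.8% higher and 21.2% lower of all tested genes. Against control 4 were higher, 7 lower and 15 did not pass, beside 33.1% and 26.3%.

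For the supply of ornithine and arginine, 3 of 7 genes were tested and 2 rose with OVA, beside 32.1% of all tested genes. Slc7a1, the main cationic amino acid transporter, stood at 50.2, 46.8 and 45.2 TPM in control, 104, 112 and 108 TPM with OVA, and 71.9, 79.7 and 75.4 TPM with OVA plus citraconate. Its groups were apart and had the same order as those of Odc1. Slc7a3, a related transporter, rose from 1.40 ± 0.312 to 14.8 ± 1.75 TPM with OVA (limma adjusted p = 1.22e-06) and was at 3.42 ± 1.45 TPM with OVA plus citraconate. The arginase genes Arg1 and Arg2, which make ornithine from arginine, had at most 1 read in any library. Oat, the mitochondrial enzyme that links ornithine to glutamate and proline, was at 81.7 ± 4.33, 87.7 ± 2.39 and 66.3 ± 1.55 TPM in control, OVA and OVA plus citraconate. It was lower in the citraconate group than with OVA (limma adjusted p = 1.44e-04) and than in control (limma adjusted p = 8.07e-04).

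In transport, 4 of 9 genes were tested, 2 rising and 2 falling with OVA, beside 32.1% and 39.8% of all tested genes. Slc3a2, the shared chain of several amino acid transporters that has also been tied to polyamine export, was at 138, 127 and 141 TPM in control, 262, 299 and 269 TPM with OVA, and 131, 159 and 141 TPM with OVA plus citraconate. The OVA libraries stood apart, and the other groups overlapped. Gpc1, a glypican that takes part in polyamine uptake, had the same form, with 21.4 ± 1.30, 45.5 ± 4.08 and 22.9 ± 5.06 TPM. Atp13a2, the lysosomal polyamine exporter, went the other way, with 14.7 ± 0.713, 7.00 ± 2.06 and 11.5 ± 1.29 TPM, and it fell with OVA by a log2 of -1.001 (limma adjusted p = 3.24e-04). Atp13a3, a polyamine transporter of the same family, had a mean log2 difference of -0.18 with OVA (limma adjusted p = 0.0332). That call was lost when any control or OVA replicate except control replicate 3 was left out, and with the median of ratios (0.182).

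The methionine cycle provides the aminopropyl donor, and the salvage pathway recycles the methylthioadenosine that Srm and Sms release. All 9 genes were tested, and with OVA 3 rose (Mtr, Mtap, Enoph1), 5 fell (Mat2a, Mat2b, Ahcy, Mri1, Adi1) and Apip did not pass. Of all tested genes 32.1% rose and 39.8% fell with OVA. Mtap, the first salvage enzyme, was at 45.9, 47.0 and 44.7 TPM in control, 58.6, 62.5 and 64.6 TPM with OVA, and 41.4, 47.8 and 46.7 TPM with OVA plus citraconate. As for Srm, the OVA libraries were the highest, but here control and citraconate libraries overlapped. Ahcy, which clears S-adenosylhomocysteine, fell from 472 ± 8.23 to 348 ± 5.53 TPM with OVA (limma adjusted p = 3.64e-06) and was at 358 ± 3.18 TPM with OVA plus citraconate. The fall of Mat2a (log2 -0.17, limma adjusted p = 0.0112) was lost with the median of ratios (0.107) and with granzyme genes left out of the total (0.287).

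Of the transcription factors known to act on Odc1 or Sat1, Myc moved opposite to Odc1. MYC is known to bind E-boxes in Odc1, but the 250 bases of the Odc1 window shown above held no CACGTG. Myc was at 652, 645 and 658 TPM in control, 142, 129 and 186 TPM with OVA, and 558, 534 and 552 TPM with OVA plus citraconate. The OVA libraries were the lowest in Myc and the highest in Odc1, and the groups did not overlap. Between OVA plus citraconate and control Myc did not pass (log2 -0.25, limma adjusted p = 0.0659). It was called lower there under several alternatives, such as median-of-ratios scaling (0.0220) and voom (0.0478). Myc fell by 2.11 on the log2 scale with OVA (SE 0.11, limma adjusted p = 1.05e-07), while its partner Max rose by 0.33 (limma adjusted p = 0.00252). Mycn was at 22.2 ± 1.85, 12.2 ± 4.60 and 4.99 ± 2.06 TPM in control, OVA and OVA plus citraconate. Nfe2l2, which encodes NRF2, fell from 7.84 ± 1.78 to 2.31 ± 0.429 TPM with OVA (limma adjusted p = 2.91e-05) and was at 7.08 ± 0.889 TPM with OVA plus citraconate.

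**Figure D4:**
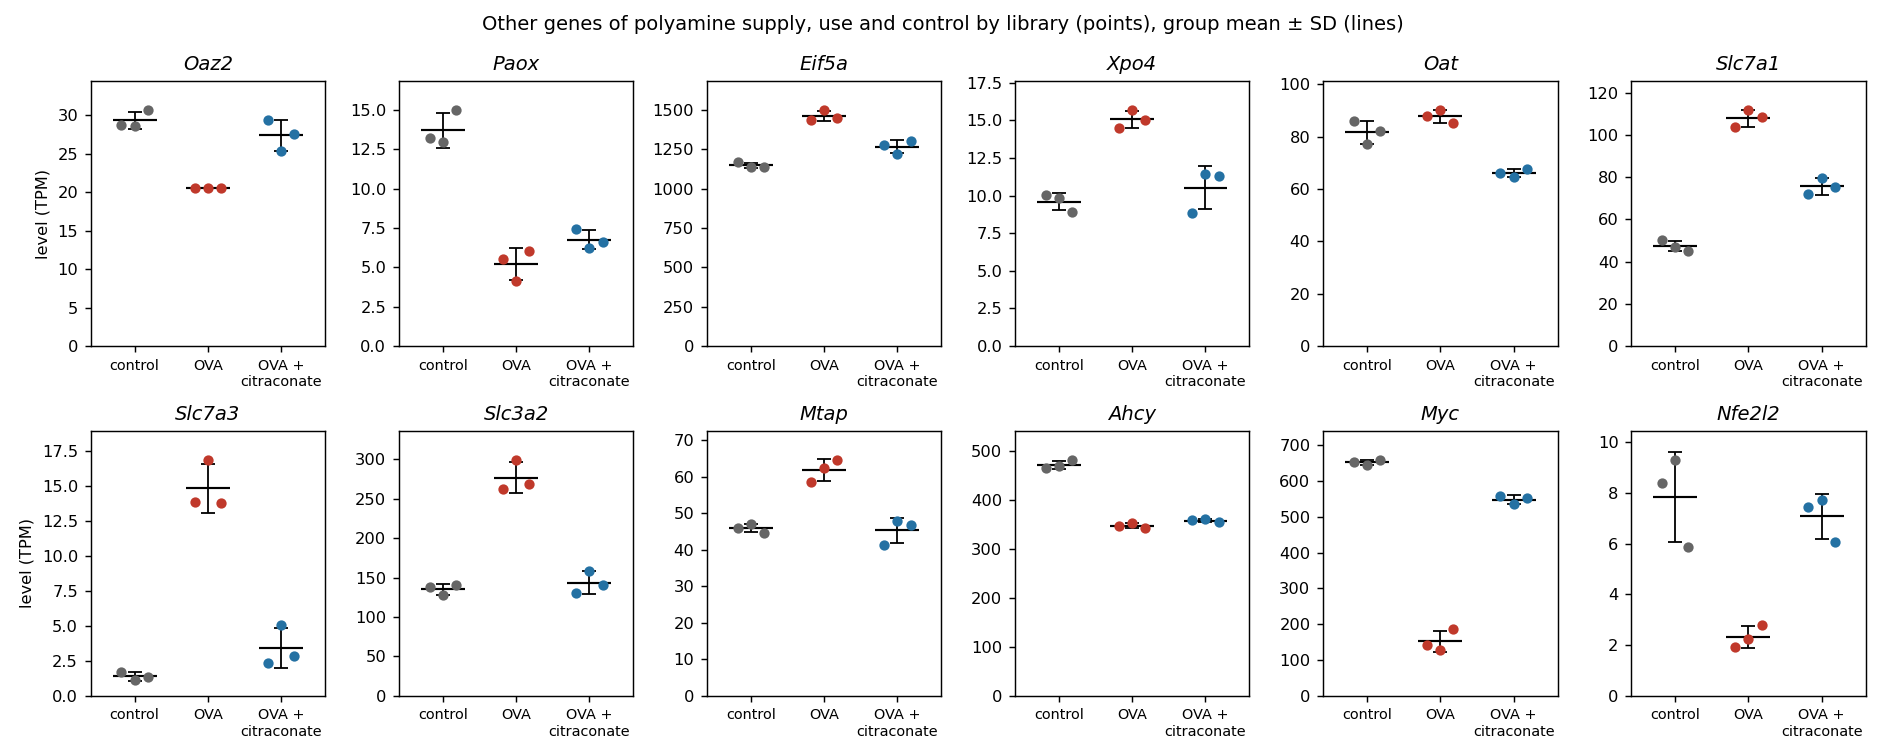
Level in TPM (vertical axes, each from 0) of 12 other genes of polyamine supply, use and control in each library (points) of the 3 groups (horizontal axes), with group mean ± SD (lines, n = 3). Slc7a1, Slc3a2 and Mtap are highest in the OVA libraries, and Myc and Nfe2l2 are lowest there (129 to 186 TPM for Myc).

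Across the 9 libraries the members' patterns were described by Pearson's r of log2(TPM + 1); the libraries fall in 3 groups, which these values largely reflect. Odc1 had r = 0.965 with Sat1 and 0.961 with Amd1, and Oaz1 had r = -0.958 with Srm. Predicted genes, clones, pseudogenes, numbered copies, and mitochondrial and microRNA genes were left out by name before the ranks and counts that follow. The genes most like Odc1 were Scfd1 (r = 0.999), Cth (0.998), Styk1 (0.998) and Coq10b (0.997), and 65 genes had an r above 0.99. The genes most like Sat1 were Tnfrsf9, Ipo13, Ube2m and Spred1, with r from 0.996 to 0.997 and 40 genes above 0.99. Scfd1 went from 40.5 to 81.5 and 67.9 TPM (means of control, OVA and OVA plus citraconate), and Tnfrsf9 from 308 to 1438 and 1400 TPM.

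Some members share sequence with other genes, which limits how surely reads could be assigned. Among the 75-base words of the coding transcripts, Srm, Azin1, Smox and Dhps shared none with another gene of GENCODE M21 and Sat1 shared 2.46%. For Odc1 the share was 30.5%, spread over 12 other genes, and for Oaz1 it was 37.97%, all with the pseudogene Oaz1-ps, whose level was at most 0.917 TPM. For Sms it was 27.6%, and for Dohh 45.3%, the latter with an overlapping gene model (Gm48551). The sources used here do not say how such reads were divided.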

How the data were processed

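The authors deposited 1 table of TPM for 9 libraries, with genes named by symbol. The file name says FPKM, but every column sums to 1000000, so the values were read as TPM. Trim Galore 0.5.0, Salmon and the GRCm39 build are named, per the submitters' processing notes; no annotation is named in the sources used. Members, lists and tests were chosen with earlier results of these data known, and the table held no column outside the 9 samples. All members and every listed gene whose mean reached 5 TPM in a group could be named. For likeness these were the 4 closest ranked genes to Odc1 and to Sat1.

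Genes whose mean reached 1 TPM in 1 or more groups were fitted as log2(TPM + 1) in limma 3.58.1 (R 4.3.3), all 9 libraries together, with lmFit and eBayes with a trend. P-values are two-sided, adjusted by Benjamini-Hochberg over 11971 genes, and called under 0.05. The steps were tested on simulated data. Log2 differences understate changes of low genes. Whole reads (tolerance 0.02 reads at most) were found for 100% of 16734 genes above 0 in 2 or more libraries. They served for depth and for a voom alternative. They were worked back with the same gene length for all libraries, and which tool counted the reads behind the values is unclear. Replicates differed by more than sampling noise (chi-square per gene 3.72 to 23.8). In all, 18 planned and 2 added alternatives were run; the latter, voom and leaving out both replicates 2, were chosen after seeing the data.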

Additional observations from a re-analysis of the deposited data

How the results depend on the processing

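Over 20 alternatives the members called numbered 8 to 10 for OVA against control, 6 for OVA plus citraconate against OVA and 9 for OVA plus citraconate against control. Of 600 member differences under these alternatives 591 kept their call, 7 lost it and 2 gained it. In 13 the sign changed, all for Amd1, Sat1, Dhps or Dohh, and none of these 13 values was called. Dhps in OVA plus citraconate against OVA was among them under each scaling alternative. The changed calls were those of Azin1 and Dohh for OVA against control and of Sms and Amd1 for OVA plus citraconate against OVA. Leaving out 1 library at a time, the genes called ranged from 8018 to 8629, 6211 to 6953 and 6332 to 7345 in these comparisons. Of 84 ratio differences under alternatives 80 kept their sign. The exception was Azin1 per Oaz1 in OVA plus citraconate against control, which ranged from -0.0673 to 0.0511 (log2) as single libraries were left out; the group means were nearly equal. With the replicate block the members called numbered 9, 6 and 9 and all genes called 8578, 7004 and 7128. Same-numbered libraries had correlations of -0.01 to 0.30, above 0.1 in 3 of 9 pairs, and not every library correlated best with its own number, so the numbers were not taken as pairs. Among 1557 values of the wider lists 36 lost their call, 37 gained it and 0 called values changed sign. The call of Paox as higher with citraconate than with OVA (limma adjusted p = 0.0487) was lost when any library except OVA replicate 3 was left out, and under every scaling tried.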

Other observations

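Some pairs were chosen after their values were seen and are given as values only. Odc1 per Myc, in TPM within a library, was 0.582, 0.611 and 0.561 in the control replicates, 5.56, 6.49 and 4.60 with OVA, and 1.22, 1.25 and 1.22 with OVA plus citraconate, with no overlap between groups. Odc1 per Srm was 4.45 ± 0.356 in control, 3.41 ± 0.305 with OVA alone and 6.15 ± 0.469 with OVA plus citraconate (SD, n = 3). Smox per Sms, the spermine oxidizing over the spermine making transcript, was 0.512 ± 0.0236, 0.247 ± 0.0188 and 0.393 ± 0.00760 in the same order. The 4 synthesis genes Odc1, Amd1, Srm and Sms summed to 565 ± 11.98, 1198 ± 42.3 and 929 ± 7.50 TPM, and the breakdown genes Sat1, Smox and Paox to 62.2 ± 1.18, 89.7 ± 5.03 and 106.98 ± 0.445 TPM. Of these breakdown genes only Sat1 rose with OVA, while Smox and Paox fell.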
